A study of Mus musculus with 2 samples.

Results

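The cells described are macrophages that combined MHC class II transcripts with those of complement C1q and held few or no UMIs of 7 genes used to mark other myeloid states. They were chosen by measured values, in a gate on unique molecular identifiers (UMIs), the counts of distinct RNA molecules, in 1 library of GFP+ cells. A barcode needed at least 5000 UMIs with under 10% from mitochondrial genes, at least 6 UMIs of C1qa and C1qb together, and at least 20 of H2-Aa and H2-Ab1 together. It could hold at most 1 UMI over Lyve1, Folr2, Cd163 and Fcna, at most 2 of Gpnmb, and at most 1 over Ly6c2 and Chil3. Of 36400 barcodes, 8742 passed the limits on depth and mitochondrial share (deep barcodes), and 656 of these met the whole gate, which was 7.50% of deep barcodes (95% interval 6.96 to 8.08%).

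The hind limb muscle came from a 2-month-old male S100GFPtg mouse labelled WT, or a pool of such mice, 7 days after crush of the sciatic nerve (the series title says spinal crush). The transgene puts green fluorescent protein under the S100B promoter, so the sort for GFP+ cells without propidium iodide sets which cells could be seen at all. Tibialis anterior and gastrocnemius were digested with enzymes at 37 °C for 60 min before the sort. The series description speaks of 1 crushed animal while the study's methods speak of pooled males, and the library has no replicate, so no test was possible and all intervals cover counting error only. Counts of the GFP- fraction were not analysed here.

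MHC class II molecules carry peptides from engulfed proteins to the cell surface, where CD4 T cells read them. H2-Aa, H2-Ab1 and H2-Eb1 encode the chains of the peptide-binding molecules, Cd74 the invariant chain that guards the groove, H2-DMa and H2-DMb1 the exchange factor that loads peptide, H2-Oa and H2-Ob its inhibitor, and Ciita the coactivator that switches the genes on. C1q opens the classical complement pathway and in tissues is made largely by macrophages, whereas dendritic cells, which also carry much class II, make little.

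The rule fixed the levels of its own genes, which are given as a description. The C1qa and C1qb sum ran from 6 UMIs to 258 with a median of 53, and the H2-Aa and H2-Ab1 sum from 21 to 541 with a median of 106.5. Single genes had medians of 22 UMIs for C1qa, 30 for C1qb, 63 for H2-Aa and 44 for H2-Ab1. Mitochondrial genes gave a median of 3.42% of a member's UMIs. Few barcodes lay at the class II limit, with 9 members at 20 to 24 UMIs and 20 barcodes that met every other limit at 15 to 19. At the C1q limit, 9 members had 6 to 8 UMIs and 44 otherwise fitting barcodes had 3 to 5. The limit on Lyve1, Folr2, Cd163 and Fcna cut through the most cells. It alone kept out 1576 barcodes, of which 229 had 2 or 3 UMIs, compared with 506 kept out by C1q alone, 197 by Ly6c2 and Chil3, 184 by class II and 18 by Gpnmb. Gpnmb was at 0 in 644 of the members.

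**Figure D1:**
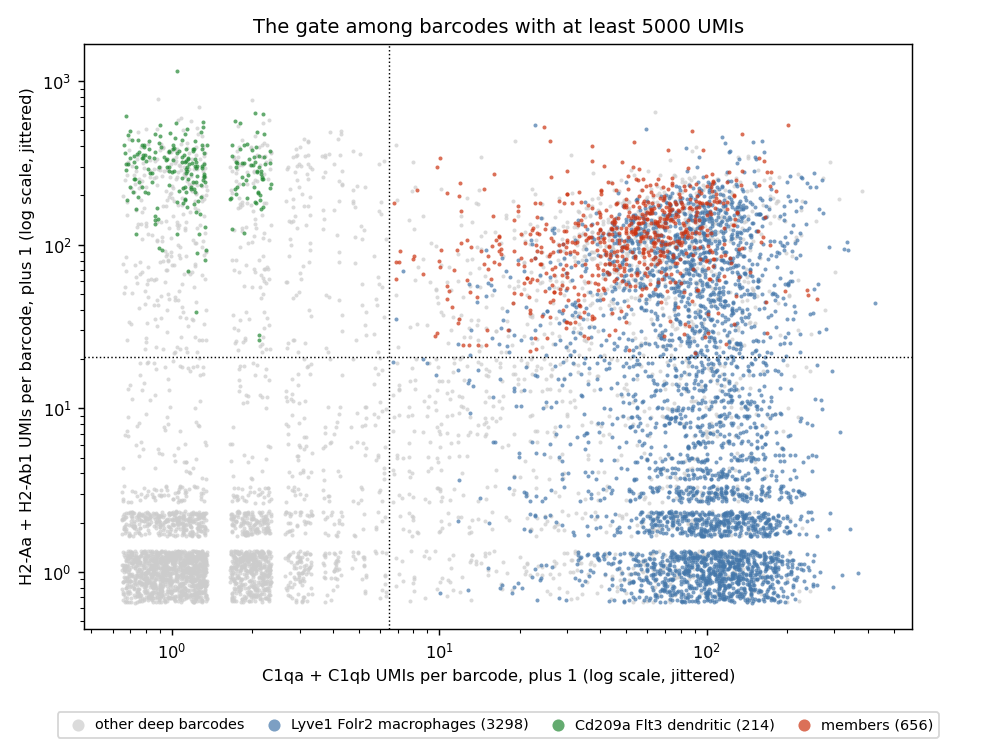
C1qa plus C1qb UMIs (x axis) against H2-Aa plus H2-Ab1 UMIs (y axis) of each deep barcode, both plus 1 on log scales with small random shifts, and dotted lines at the limits of 6 and 20 UMIs. The 656 members (red) share the upper right quadrant with 1182 of the 3298 Lyve1 Folr2 macrophages (blue), while the 214 Cd209a Flt3 dendritic cells (green) lie at 0 or 1 C1q UMI.

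The members were compared with other cells of the same library, also gated on UMIs. Lyve1 Folr2 macrophages (3298 cells) had at least 6 UMIs of C1qa and C1qb and at least 6 over Lyve1, Folr2, Cd163 and Fcna, with no class II limit, and 35.8% of them had 20 or more class II UMIs. Cd209a Flt3 dendritic cells (214) had the class II minimum of the members, at least 3 UMIs of Cd209a and Flt3 together and at most 1 of C1qa and C1qb. Gpnmb macrophages (20 cells) had at least 6 UMIs each of C1q and Gpnmb, and fibroblasts (1042 cells, at least 3 Pdgfra UMIs and no Ptprc) served as cells that should lack myeloid genes. Members were shallower than these groups, with a median of 9449 UMIs (5043 to 37990) against 11608 in Lyve1 Folr2 macrophages, 14485 in dendritic cells, 20220 in Gpnmb macrophages and 16664 in fibroblasts. Since the limits count UMIs, a shallow barcode passes an upper limit more easily. When all cells were first thinned at random to 5000 UMIs, 800 barcodes passed, among them 595 of the 656. Levels are UMIs per 1000000 UMIs of a group (CPM), summed over its cells, with the exact Poisson 95% interval in brackets, and values per cell are after thinning to 5000 UMIs. Of the 656 barcode names, 7 (1.07%) also occurred in the GFP- library, near the 1.02% of all barcodes.

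Genes that the gate did not use also went with the label, though some vary with the genes it used. Cd74, which is made together with the class II genes of the gate, was on in every member. The lowest, median and highest member held 9, 75 and 207 Cd74 UMIs, compared with 0, 4 and 156 in Lyve1 Folr2 macrophages. Csf1r, the receptor for the macrophage growth factor CSF1, was at 493 CPM (477 to 509.8) in members, 764 CPM (755 to 772) in Lyve1 Folr2 macrophages and 32.8 CPM (27.0 to 39.4) in dendritic cells. After thinning, 87.8% of members held a Csf1r UMI against 3.84% of fibroblasts, and without thinning 96.3% and 9.12%. Of the 5 genes Csf1r, Adgre1, Fcgr1, Mertk and C1qc, at least 3 were detected without thinning in 618 members (94.2%) and in 8 of the 214 dendritic cells (3.74%). C1qc goes with the C1q genes that had chosen both groups, and other genes that vary with C1q differ between them by construction. Ccl4, the chemokine given as a further marker, was at 5862 CPM (5806 to 5919) in members and 3296 CPM (3278 to 3313) in Lyve1 Folr2 macrophages. The share of cells with a Ccl4 UMI hardly separated them, at 83.1% and 79.8% after thinning (86.9% and 84.5% before) with 9.12% in fibroblasts (22.6% before).

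**Figure D2:**
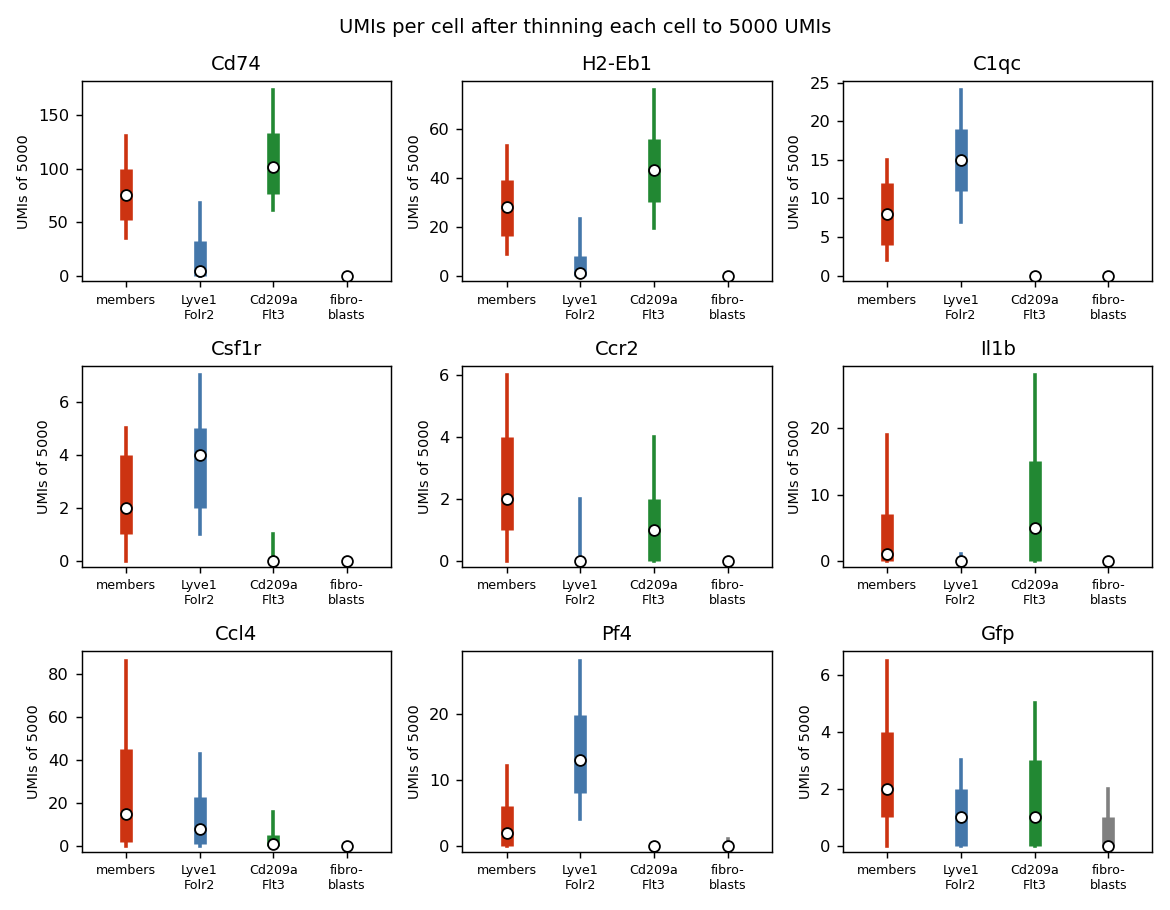
UMIs per cell of 9 genes after thinning each cell to 5000 UMIs (y axis) in 4 groups (x axis), with the median (circle), the 25th to 75th percentile (thick bar) and the 10th to 90th percentile (thin bar). Members have Cd74 and H2-Eb1 above Lyve1 Folr2 macrophages and below dendritic cells, C1qc and Csf1r between Lyve1 Folr2 macrophages and dendritic cells, and the highest median of Ccr2.

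Class II genes lie together on chromosome 17 of GRCm38 (mm10), the build in the submitters' notes (the study's methods also name GRCm39, and coordinates are given on GRCm38 alone), with H2-Oa at 34092379 to 34095234, H2-DMb1 at 34153191 to 34160229, H2-Ob at 34238905 to 34245908, H2-Aa at 34282744 to 34287823 and H2-Eb1 at 34305867 to 34316674. Their start regions are shown because class II genes were among the highest in these cells while H2-Oa and H2-Ob stayed near 0. The 150 bases before each start are given 5′ to 3′ from RefSeq (GRCm38.p6), with capitals for matches to a Y box (TGATTGG) and to letters of the X box chosen with these sequences in view (CTNGNAAC), both searched on both strands.
H2-Aa (chr17:34287824-34287973, minus strand): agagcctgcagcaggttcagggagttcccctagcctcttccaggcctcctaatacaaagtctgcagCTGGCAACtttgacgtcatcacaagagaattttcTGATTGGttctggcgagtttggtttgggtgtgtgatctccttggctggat
H2-Eb1 (chr17:34305717-34305866, plus strand): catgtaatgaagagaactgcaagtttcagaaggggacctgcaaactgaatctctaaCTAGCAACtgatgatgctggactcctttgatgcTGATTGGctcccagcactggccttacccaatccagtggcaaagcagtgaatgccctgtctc
H2-DMb1 (chr17:34153041-34153190, plus strand): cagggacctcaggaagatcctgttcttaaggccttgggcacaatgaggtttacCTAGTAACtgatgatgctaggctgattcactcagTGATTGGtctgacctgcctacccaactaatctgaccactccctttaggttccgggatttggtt
H2-Ob (chr17:34238755-34238904, plus strand): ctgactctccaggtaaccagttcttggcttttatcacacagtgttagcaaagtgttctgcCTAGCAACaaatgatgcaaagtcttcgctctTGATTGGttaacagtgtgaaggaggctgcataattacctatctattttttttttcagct
H2-Oa (chr17:34092229-34092378, plus strand): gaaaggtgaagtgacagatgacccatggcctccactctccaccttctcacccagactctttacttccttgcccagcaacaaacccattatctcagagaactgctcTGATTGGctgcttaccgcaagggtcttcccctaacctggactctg
In H2-Aa, H2-Eb1, H2-DMb1 and H2-Ob the X letters began 84, 94, 97 and 90 bases before the start, and the Y box followed 34, 33, 34 and 31 bases later. In H2-Oa the window held the Y box, 45 bases before the start, without the X letters. A near match to them, ccagcaac with C in place of T, began as far before the Y box as in H2-Aa and H2-DMb1. Among 32851 windows of 250 bases before a RefSeq start, 7.23% held the Y box, 10.9% the X letters and 0.819% both. Of the 12 class II genes searched, 10 had a window in the table, and Cd74 was not among those searched. Besides those shown, H2-Eb2 held both with the Y box first and 90 bases between the starts. H2-DMb2 held the Y box alone, and H2-DMa (at both start sites searched), Ctss and Ifi30 held neither. The windows of C1qb, C1qc and Ccl3, outside class II, also held neither. The windows of H2-DMa and H2-DMb2 lay inside the annotated genes, which begin at 34119693 and 34143229, and that of H2-Eb2 overlapped its gene. The bases before the outer ends of H2-DMa and H2-DMb2 were not searched. A match is a description of letters and not a site shown to be used, and H2-Ob, which held both, was among the lowest class II genes in the members.

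Across class II presentation genes, members stood far above Lyve1 Folr2 macrophages and somewhat below dendritic cells. H2-Eb1 was at 5535 CPM (5479.6 to 5589.9) in members, 1188 CPM (1178 to 1199) in Lyve1 Folr2 macrophages, 8408 CPM (8312 to 8505) in dendritic cells and 26.0 CPM (23.7 to 28.5) in fibroblasts. The lowest, median and highest member held 0, 28 and 104 UMIs, and the ranges of the groups overlapped, with 0, 1 and 96 in Lyve1 Folr2 macrophages and 3, 43 and 136 in dendritic cells. Cd74 was at 14779 CPM (14689 to 14869), 3876 CPM (3857 to 3895) and 19754 CPM (19607 to 19903) in members, Lyve1 Folr2 macrophages and dendritic cells, the highest level of any class II gene here. The log2 ratio of members to Lyve1 Folr2 macrophages was 1.93 (1.92 to 1.94) for Cd74 and 2.22 (2.20 to 2.24) for H2-Eb1. These genes are made together with the 2 genes of the rule, so their height in members partly restates the gate.

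The loading genes followed the same order. H2-DMa was at 419 CPM (404 to 434) in members, 146 CPM (142 to 149.8) in Lyve1 Folr2 macrophages and 744 CPM (716 to 774) in dendritic cells. H2-DMb1 was at 426 CPM (411 to 442), 99.9 CPM (96.9 to 103) and 798 CPM (769 to 828), a log2 ratio to Lyve1 Folr2 macrophages of 2.09 (2.03 to 2.16). Each of the 2 genes had a median of 2 UMIs per member, with 0 in 130 members for H2-DMa and in 143 for H2-DMb1. Ciita was at 49.3 CPM (44.2 to 54.7) in members, beside 56.4 CPM (48.8 to 64.8) in dendritic cells, a log2 ratio of -0.19 (-0.45 to 0.07), and above the 15.6 CPM (14.5 to 16.9) of Lyve1 Folr2 macrophages.

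The inhibitor of loading and the second beta chain of the exchange factor did not share this height. H2-Oa was at 2.00 CPM (1.09 to 3.35) in members and 71.6 CPM (63.0 to 81.1) in dendritic cells, a log2 ratio of -5.16 (-6.06 to -4.39). H2-Ob was at 5.43 CPM (3.84 to 7.45) and 90.6 CPM (80.9 to 101), a log2 ratio of -4.06 (-4.59 to -3.57). H2-DMb2 was at 7.00 CPM (5.18 to 9.25) and 84.0 CPM (74.6 to 94.2). All 3 were therefore more than 10-fold lower in members than in dendritic cells, although H2-Eb1 differed between these groups by a log2 ratio of only -0.60 (-0.63 to -0.58). The reads that fit both H2-DMb1 and H2-DMb2, which are near copies, may have been left uncounted, so the levels of these genes are uncertain.

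In counts, a gene was called when its CPM differed over 2-fold and reached 10 CPM in either group, rule genes left out. Against Lyve1 Folr2 macrophages, 3.73% of the 8274 genes were higher by this measure and 5.95% lower. Of the 11 class II presentation genes outside the rule, 7 reached 10 CPM, and 5 of them were over 2-fold higher in members and 0 lower, with a median log2 ratio of 1.66 beside -0.10 for all genes tested. Against dendritic cells, 16.6% of 8165 genes were higher and 8.5% lower, and 11 of the 11 class II genes could be read, with 1 higher (Ctss, a protease that trims the invariant chain) and 4 lower. Class I genes present peptides from within the cell. Of 9 class I presentation genes, 0 were over 2-fold higher or lower than in Lyve1 Folr2 macrophages, and against dendritic cells 4 were lower in members. Psmb9, a subunit of the immunoproteasome, was at 61.4 CPM (55.7 to 67.5) in members and 304 CPM (286 to 323) in dendritic cells.

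**Figure D3:**
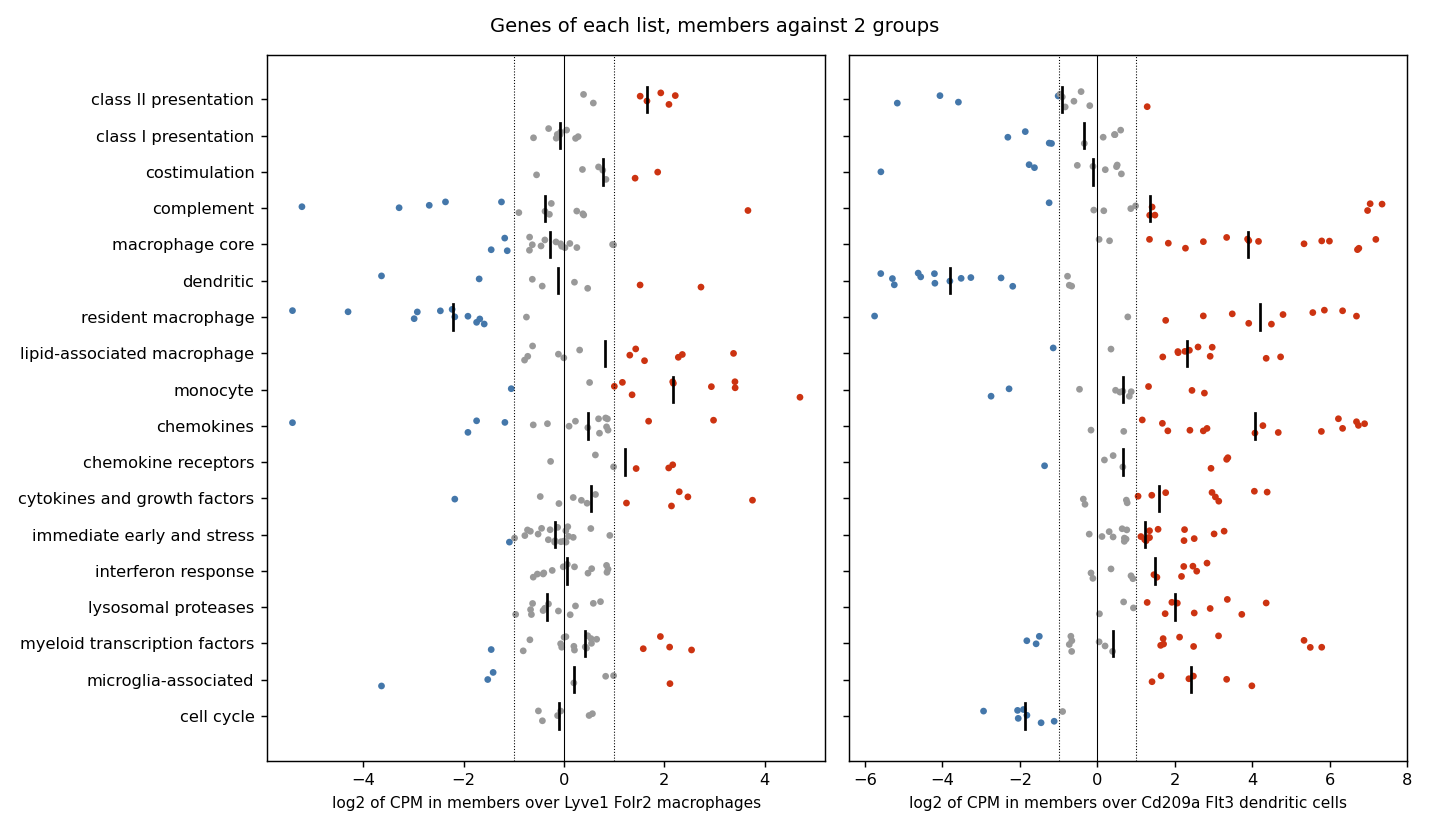
Log2 ratio of CPM in members over Lyve1 Folr2 macrophages (left) and over Cd209a Flt3 dendritic cells (right) for each gene of 18 lists that reached 10 CPM in either group, rule genes left out, with the list median as a black line and dotted lines at 2-fold. Class II and monocyte genes lie to the right and resident macrophage genes to the left on the left side, and macrophage, chemokine and resident genes lie to the right on the right side.

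Macrophage core genes lay nearer to Lyve1 Folr2 macrophages than to dendritic cells, and complement genes differed from both. Of 13 complement genes outside the rule, 1 was over 2-fold higher and 5 lower than in Lyve1 Folr2 macrophages, with a median log2 ratio of -0.38. Against dendritic cells 11 reached 10 CPM, and 6 were higher and 1 lower. C1qc, the third chain of C1q, was at 1596 CPM (1566 to 1626) in members, 2978 CPM (2961 to 2994) in Lyve1 Folr2 macrophages and 9.78 CPM (6.77 to 13.7) in dendritic cells, which the gate had chosen for low C1q. Of 16 macrophage core genes, 0 were over 2-fold higher and 3 lower than in Lyve1 Folr2 macrophages. Against dendritic cells 14 were higher and 0 lower, with a median log2 ratio of 3.89 beside 0.05 for all genes. Since C1q had cut members from dendritic cells, macrophage genes that vary with it differ by construction. Apoe, a carrier of cholesterol that macrophages secrete, was at 13686 CPM (13599 to 13773) in members and 93.8 CPM (83.9 to 105) in dendritic cells, a log2 ratio of 7.19 (7.03 to 7.35). The complement receptor genes C3ar1 and C5ar1 had log2 ratios of 6.98 (6.17 to 7.93) and 7.04 (6.32 to 7.88), and Trem2, a lipid receptor of macrophages, 6.75 (5.97 to 7.66). The transcription factor gene Maf, which marks macrophages, had 5.79 (5.28 to 6.36). Spi1, which both lineages use, was at 297 CPM (284 to 309.6) and 287 CPM (269 to 305), with a log2 ratio of 0.05 (-0.06 to 0.16).

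Dendritic genes were lower in members than in dendritic cells. Flt3, the receptor that dendritic precursors depend on, was at 19.1 CPM (16.0 to 22.7) in members, 184 CPM (169.8 to 199) in dendritic cells, which were chosen for it, and 2.88 CPM (2.39 to 3.44) in Lyve1 Folr2 macrophages. A Flt3 UMI was found in 9.30% of members after thinning and 15.1% before, with 0.192% and 0.288% in fibroblasts. No Flt3 or Cd209a UMI was found without thinning in 532 of the members, and 17 held 3 or more. Xcr1 and Clec9a, of cross-presenting dendritic cells, reached 3 UMIs together in 5 members, and Ccr7 and Fscn1, of migrating ones, in 9. Of 16 dendritic genes, 15 reached 10 CPM, and 12 were over 2-fold lower than in dendritic cells and 0 higher, a count that includes Flt3 and Cd209a, by which the dendritic cells were chosen. Against Lyve1 Folr2 macrophages 8 of the list reached 10 CPM, with 2 higher and 2 lower, and against Gpnmb macrophages 7, with 5 higher and 1 lower. Zbtb46, a transcription factor of dendritic cells, was at 4.71 CPM (3.24 to 6.62) in members and 86.9 CPM (77.3 to 97.2) in dendritic cells, and Ccl17, a dendritic chemokine, had a log2 ratio of -5.32 (-5.94 to -4.75). Other genes with the lowest ratios to dendritic cells were P2ry10, Ccser1, Kit, Timd4, Itgae, Gpr141b, Chsy3, Sept3 and Btla, with log2 ratios from -6.15 to -5.37.

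**Figure D4:**
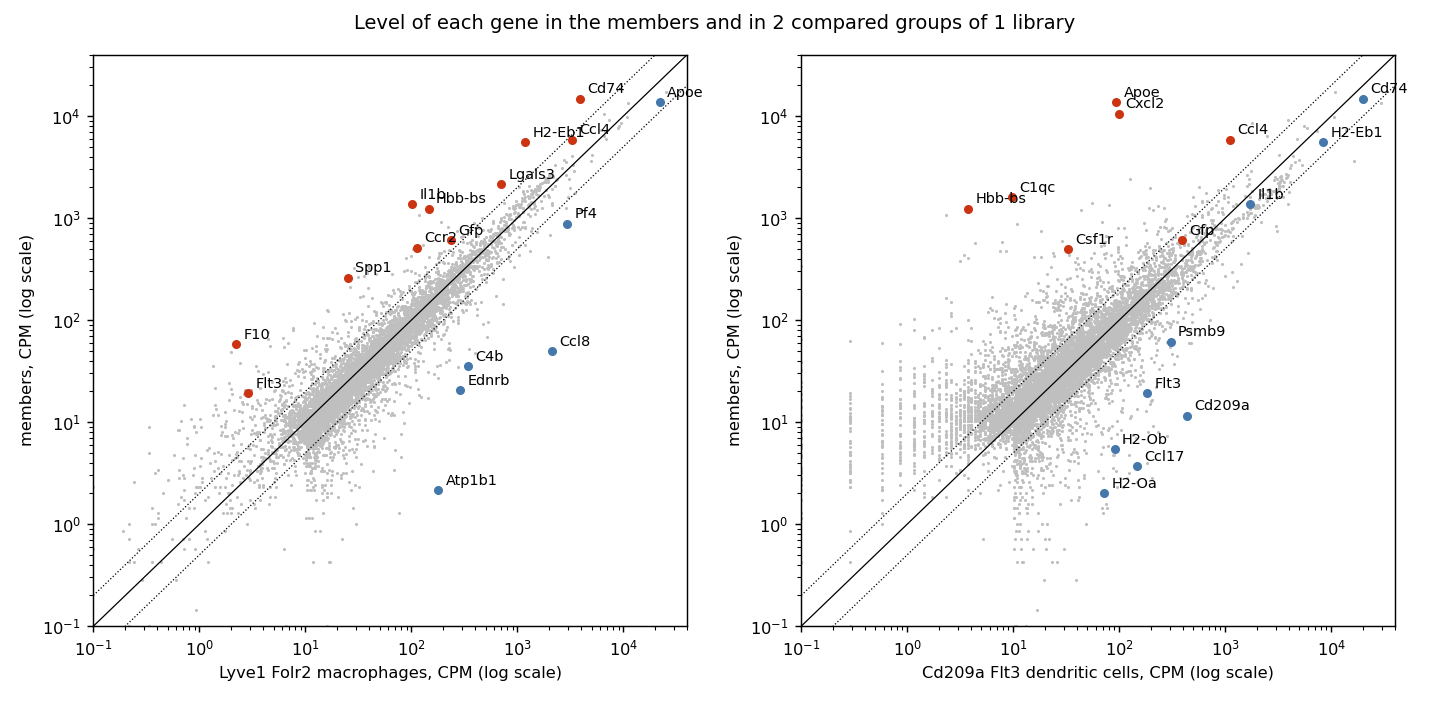
CPM of each gene in members (y axis) against Lyve1 Folr2 macrophages (left) and Cd209a Flt3 dendritic cells (right), on log scales, for genes with at least 10 CPM in a group, with the line of equality and dotted lines at 2-fold. Genes at 0 in a group are drawn at the edge of the plot. Ccl8, Atp1b1 and Pf4 lie below the line on the left and Il1b, Ccr2 and F10 above it, while Apoe, C1qc and Cxcl2 stand far above it on the right and H2-Oa, Cd209a and Flt3 below.

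Members held less RNA of tissue-resident macrophage genes than Lyve1 Folr2 macrophages, beyond the 4 that the gate used. Of 12 resident macrophage genes, 11 were over 2-fold lower than in Lyve1 Folr2 macrophages and 0 higher, with a median log2 ratio of -2.20. Because the groups were cut by Lyve1, Folr2, Cd163 and Fcna, genes that vary with these differ by construction. Ccl8, a chemokine for monocytes, was at 49.8 CPM (44.7 to 55.3) in members and 2124 CPM (2110.3 to 2138) in Lyve1 Folr2 macrophages, a log2 ratio of -5.41 (-5.57 to -5.26). In members its lowest, median and highest UMIs per cell were 0, 0 and 22, compared with 0, 2 and 285. Cbr2, Ltc4s and Gas6 had log2 ratios of -2.92, -2.99 and -2.46. The mannose receptor gene Mrc1 and Pf4 were lower and still abundant, with Mrc1 at 1262 CPM (1236 to 1289) and 2863 CPM (2847 to 2879.6) and Pf4 at 880.2 CPM (858 to 902) and 2945 CPM (2928 to 2961). The 12 genes summed to 3347 CPM in members, 13694 CPM in Lyve1 Folr2 macrophages, 2518 CPM in Gpnmb macrophages and 382 CPM in dendritic cells. Against Gpnmb macrophages 4 of the 11 that reached 10 CPM were over 2-fold higher in members and 0 lower. Against dendritic cells 10 of 12 were higher and 1 lower. Among genes with at least 50 CPM, Atp1b1 (a subunit of the sodium pump) and Cd209f had the lowest ratios, -6.39 (-7.23 to -5.67) and -5.88 (-7.01 to -4.96). Ccl8 came next, and Tslp, Chp2, Ednrb, Nrcam, Plekhg5, C4b and Pdgfc followed it, from -4.32 to -3.14.

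Genes of blood monocytes were higher in members than in Lyve1 Folr2 macrophages, and not than in every other group. Of 12 monocyte genes, 11 reached 10 CPM, and 9 were over 2-fold higher than in Lyve1 Folr2 macrophages and 1 lower (Ifitm6), with a median log2 ratio of 2.17. The 12 genes summed to 1499.9 CPM in members, 361 CPM in Lyve1 Folr2 macrophages, 1032 CPM in dendritic cells, 1933 CPM in Gpnmb macrophages and 3668 CPM in fibroblasts. Some of the list, such as the matrix genes Fn1 and Vcan, are known from other cells too. Ccr2, the receptor that brings monocytes into tissue and which lies at 124101918 to 124109140 on chromosome 9, was at 509.5 CPM (493 to 527) in members, 113 CPM (110.1 to 117) in Lyve1 Folr2 macrophages, 323 CPM (304 to 342) in dendritic cells and 1.01 CPM (0.598 to 1.59) in fibroblasts. Its UMIs in the lowest, median and highest member were 0, 2 and 17, compared with 0, 0 and 12 in Lyve1 Folr2 macrophages. A Ccr2 UMI was held by 78.7% of members after thinning (86.3% before), 22.6% of Lyve1 Folr2 macrophages (28.5%) and 0.864% of fibroblasts (1.44%). The log2 ratio to Lyve1 Folr2 macrophages was 2.17 (2.11 to 2.23). Clec4e, a receptor of activated myeloid cells, had 2.94 (2.84 to 3.04), with 272 CPM (259.6 to 284) and 35.4 CPM (33.6 to 37.3). Several other monocyte genes came from few cells, as the 10 members with the most UMIs held 46.6% of all F10 UMIs, 65.4% for Nrg1 and 70.1% for Plac8.

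Il1b, which encodes an inflammatory cytokine, its relative Il1a and their antagonist Il1rn were higher in members than in Lyve1 Folr2 macrophages, and Il18, of the same family, was at 19.7 CPM (16.6 to 23.3) and 27.3 CPM (25.8 to 29.0). Il1b, at 129364569 to 129371164 on chromosome 2, was at 1372 CPM (1345 to 1399.8) in members, 101 CPM (98.3 to 104) in Lyve1 Folr2 macrophages and 1710.1 CPM (1667 to 1754) in dendritic cells. The lowest, median and highest member held 0, 1 and 86 UMIs, and Lyve1 Folr2 macrophages 0, 0 and 71. Many members had none and some had much, and the ranges overlapped. The log2 ratio to Lyve1 Folr2 macrophages was 3.76 (3.71 to 3.81), for Il1rn 2.30 (2.19 to 2.41), and for Il1a 2.14 (1.99 to 2.30). Of 12 cytokine and growth factor genes, 5 were over 2-fold higher than in Lyve1 Folr2 macrophages and 1 lower, Igf1, with 50.8 CPM (45.7 to 56.4) and 229.9 CPM (225 to 235). Tnf did not differ by 2-fold, with 662 CPM (643 to 681) and 582 CPM (575 to 589.8), and Il10 was at 143 CPM (135 to 152) and 113 CPM (109 to 116). Cd14, the co-receptor for bacterial lipopolysaccharide, was at 2014 CPM (1981 to 2048) in members and 1028 CPM (1019 to 1038) in Lyve1 Folr2 macrophages. The highest ratios to Lyve1 Folr2 macrophages among genes with at least 50 CPM were those of F10, a coagulation factor, with 4.71 (4.38 to 5.05), and Mmp12, macrophage elastase, with 4.10 (3.86 to 4.35). Of the Mmp12 UMIs 82.6% lay in 10 members, and 628 members had none after thinning. Hba-a2 came next with all its UMIs in 10 members or fewer, and Il1b was the fourth. Olr1, with 47.9% of its UMIs in 10 members, Tnip3, Bcl2a1a, Nrg1, Spp1 and Gngt2 had 3.57, 3.52, 3.46, 3.41, 3.38 and 3.38. For Nrg1 and Spp1, 10 members held 65.4% and 57.7% of the UMIs.

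Chemokine genes were abundant in both kinds of macrophage. The 17 listed genes summed to 26478 CPM in members, 24764 CPM in Lyve1 Folr2 macrophages and 2375 CPM in dendritic cells. Cxcl2, which draws neutrophils, was the highest of them in members, at 10514 CPM (10439 to 10591). It was at 6518 CPM (6494 to 6543) in Lyve1 Folr2 macrophages and 98.4 CPM (88.2 to 109) in dendritic cells. Its UMIs in the lowest, median and highest member were 0, 39 and 284. Against Lyve1 Folr2 macrophages 2 of the 17 were over 2-fold higher (Ccl5 and Cxcl3) and 4 lower (Ccl8, Ccl12, Ccl24 and Pf4), with a list median of 0.48, so most were within 2-fold, Ccl4 with a log2 ratio of 0.83 (0.81 to 0.85) and Ccl3 with 0.10 (0.07 to 0.13). Against dendritic cells 15 were higher and 0 lower, with the highest ratios for Ccl12, at 6.90 (6.06 to 7.90), and Cxcl2, at 6.74 (6.59 to 6.90). Ccl5, which recruits T cells, was at 125 CPM (117 to 134) in members and 15.9 CPM (14.7 to 17.1) in Lyve1 Folr2 macrophages, with 38.2% of its UMIs in 10 members. Immediate early genes, which respond within minutes to handling of tissue, were found in every group. Fos was at 1480.3 CPM (1452 to 1509) in members, 1683 CPM (1671 to 1696) in Lyve1 Folr2 macrophages and 2074 CPM (2053 to 2096) in fibroblasts, and of 21 such genes 0 were over 2-fold higher than in Lyve1 Folr2 macrophages and 1 lower (Jun). Against dendritic cells, where 15 chemokine genes were higher, 12 of the 21 immediate early genes were higher too and 0 lower, with a median log2 ratio of 1.22 and sums of 17495 CPM and 8816 CPM. Their part in the chemokine levels was not tested.

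The costimulation list holds genes for surface ligands that raise or, as Cd274 and Pdcd1lg2, restrain T cell responses. Cd86 was at 804 CPM (783 to 826) in members, 1175 CPM (1165 to 1185) in Lyve1 Folr2 macrophages and 563 CPM (539 to 589) in dendritic cells. Cd83, which holds class II at the surface, was at 767 CPM (746 to 787), 475 CPM (469 to 482) and 665 CPM (638 to 692). Cd80 was scarcer, at 40.3 CPM (35.7 to 45.2), 22.5 CPM and 124 CPM (113 to 136), and Il12b, a cytokine that directs T cells, had 0.999 CPM (0.402 to 2.06) in members and 48.0 CPM (41.0 to 55.9) in dendritic cells. Of 9 costimulation genes, 7 reached 10 CPM against Lyve1 Folr2 macrophages, and 2 were over 2-fold higher (Cd274 and Tnfsf9) and 0 lower. Against dendritic cells 0 of 9 were higher and 3 lower.

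The 184 barcodes that met every limit but the class II minimum (median 8152 UMIs) lay mostly far below it, with 20 of them at 15 to 19 class II UMIs. Cd74 was at 1345 CPM (1292 to 1399) and H2-Eb1 at 231 CPM (209.7 to 255) in them, which the limit had set low. Ccr2 was at 195 CPM (175 to 217) and Il1b at 1037 CPM (990.4 to 1085), compared with 509.5 CPM and 1372 CPM in members. C1qc was at 1621 CPM (1562 to 1680.5), compared with 1596 CPM. Ccl4 was at 2952 CPM (2873 to 3032) and Gfp at 530.2 CPM (497 to 565), both below the members. Fibroblast genes summed to 6416 CPM in these barcodes against 1397 CPM in members, and their part in these differences was not tested.

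The Gpnmb macrophages gave a thin comparison, since 20 cells held 425259 UMIs and a gene at 10 CPM then has 4.25 UMIs. Against them 14.1% of 8209 genes were over 2-fold higher in members and 11.1% lower. Members and Gpnmb macrophages were cut by Gpnmb, so genes that vary with it differ by construction. After thinning, 9285 genes reached 10 CPM and the balance turned, with 911 higher and 2081 lower. All 12 genes of lipid-associated macrophages, which clear lipid debris, were over 2-fold lower in members, with a median log2 ratio of -2.17. Against other groups the list lay the other way, with 6 of 12 over 2-fold higher and 0 lower against Lyve1 Folr2 macrophages (median 0.81), and 10 higher and 1 lower against dendritic cells (median 2.32). Fabp5, a fatty acid binding protein, was at 501 CPM (484 to 518) in members and 8167 CPM (7897 to 8443) in Gpnmb macrophages, a log2 ratio of -4.03 (-4.10 to -3.96). Lgals3, which encodes galectin-3, was at 2133 CPM (2099 to 2167) and 12682 CPM (12346 to 13025), a log2 ratio of -2.57 (-2.62 to -2.53). Ctsd, a lysosomal protease, had -2.11 (-2.20 to -2.01), and Atp6v0d2, a subunit of the proton pump, -4.08 (-4.44 to -3.73). In a wider group of 181 cells, chosen after the data were seen (at least 3 Gpnmb UMIs and no C1q limit), all 12 genes were again over 2-fold lower in members, and 10.2% of 8176 genes were higher and 8.19% lower. In the other direction, class II genes were higher in members than in Gpnmb macrophages for 5 of 7 that reached 10 CPM and lower for 0. Mgl2, a lectin gene, had 4.16 (3.18 to 5.37), and Ccr2 3.17 (2.60 to 3.82). Some members held lipid-associated genes all the same, as 10 cells had 45.6% of Fabp5 UMIs and 57.7% of Spp1 UMIs.

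RNA of the reporter was higher in members than in Lyve1 Folr2 macrophages and lower than in Gpnmb macrophages. Gfp was at 610.3 CPM (592 to 629) in members, 237 CPM (233 to 242) in Lyve1 Folr2 macrophages, 774 CPM (692 to 862) in Gpnmb macrophages, 393 CPM (372 to 414) in dendritic cells and 119 CPM (114 to 124) in fibroblasts. UMIs in the lowest, median and highest cell were 0, 2 and 20 in members and 0, 1 and 16 in Lyve1 Folr2 macrophages, so the ranges overlapped. A Gfp UMI was found in 77.9% of members after thinning (86.9% before), 54.5% of Lyve1 Folr2 macrophages (73.7%) and 31.1% of fibroblasts (53.0%), which had passed the same sort. The log2 ratio of members to Lyve1 Folr2 macrophages was 1.36 (1.31 to 1.41), and to Gpnmb macrophages -0.34 (-0.50 to -0.18). S100b, whose promoter drives the reporter, had 4 UMIs in all members, 0.571 CPM (0.156 to 1.46), compared with 15.3 CPM (13.5 to 17.2) in fibroblasts. The sort on GFP set which cells of each group were seen, and the GFP- cells of these groups were not analysed here.

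Lists of markers of other cell types differed in level and in how many members carried them. Sox10, which defines Schwann cells, was at 0 in all members, which allows up to 3 UMIs, and the 6 Schwann genes summed to 36.7 CPM, of which Mbp gave 34.0 CPM. T and NK genes summed to 0.999 CPM with 3 of 5 at 0, B cell genes to 20.7 CPM, and mast cell genes to 1.71 CPM with 2 of 4 at 0. A UMI of Schwann genes was found in 200 members, of neutrophil genes in 259, of B cell genes in 115, of endothelial genes in 155 and of muscle fibre genes in 322. As with Mbp, a single gene gave most of some lists. Csf3r gave 51.3 of the 59.1 CPM of neutrophil genes. Pecam1 gave 48.3 of the 56.8 CPM of endothelial genes, and Cd79b 17.8 of the 20.7 CPM of B cell genes. The 10 members with the most held 13.6% of the UMIs for Schwann genes, 18.6% for B cell genes, 34.2% for endothelial genes and 51.6% for muscle fibre genes. Fibroblast genes summed to 1397 CPM in members and 32936 CPM in fibroblasts, and the 10 members with the most held 79.5% of it. Erythroid genes summed to 2719 CPM against 306 CPM in Lyve1 Folr2 macrophages, and 1 member held 8395 of the 8633 Hbb-bs UMIs. At least 20 fibroblast or 10 erythroid UMIs were found in 31 members (4.73%), compared with 4.58% of Lyve1 Folr2 macrophages and 2.80% of dendritic cells. Muscle fibre genes summed to 186 CPM in members and 141 CPM in Lyve1 Folr2 macrophages. No doublets were removed for the values above. The printed ratios past 2-fold stayed past it without these 31 members and the like barcodes of the other groups, and without those of high Scrublet score. Scrublet, a caller of doublets, placed 93 members (14.2%) among the 14.6% of deep barcodes with the highest scores.

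Within the members, genes differed in how evenly they were spread. Among 5523 genes with a mean of at least 0.1 UMI after thinning, the median ratio of variance to mean was 1.20, and the highest values belonged to Hbb-bs, Hba-a1, Hbb-bt, Retnla, Col1a1, Dcn, Hba-a2, Col1a2, Sparc and Apoe. In all of these but Apoe, 10 cells held 79.7% or more of the UMIs. Retnla, a secreted product of alternatively activated macrophages, was 0 in 605 members after thinning and reached 380 UMIs in 1. Apoe was broadly spread, with 0 UMIs in 18 members, a median of 60 and a highest value of 508. In the 625 members left without fibroblast- or erythroid-rich barcodes, the genes after Retnla were Apoe, Ccl4, Cxcl2, Spp1, Fabp4, Lgals3, Ccl7, Fabp5 and Fth1. Ccl4 ran from 0 UMIs in 107 of these members through a median of 16 to 209, and Cxcl2 from 0 in 62 through 40 to 284.

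Some pairs of genes varied together from member to member. Spearman's rho over the 656 members, all of 1 library and thinned to 5000 UMIs, was 0.82 between Cd74 and H2-Eb1 and 0.41 between Cd74 and H2-DMa, of which the second has few UMIs per cell. It was 0.70 between Ccl3 and Ccl4 and 0.58 between Ccl4 and Tnf. Lower values were 0.18 between Ccl4 and Ifit2, which was at 0 in 629 members, and 0.17 between Gfp and Lgals3. C1qc and Apoe, of different function, had 0.43. It was 0.09 between Ccl4 and Cd74 and 0.02 between Gfp and Cd74, in cells that had been chosen for high class II. These values describe cells of 1 library and are given without a test.

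Clustering the members without the rule genes gave 6 subclusters, named here by number and leading genes, and described without a test because every gene took part in forming them. Subcluster 1 (180 cells, 27.4%) was led by the interferon genes Ifit2, Rsad2, Ifit1 and Oasl1 and by Ifnb1, which encodes interferon beta. A minority of its cells held a UMI of most of these genes, with 16.7% for Ifit2, 28.9% for Rsad2 and for Ifit1 and 27.8% for Ifnb1, and 71.1% for Oasl1. Rsad2 was at 143 CPM against 12.1 CPM in the other members and Ifnb1 at 137 CPM against 22.3 CPM. It held the most Ccl4, with 12139 CPM (11975 to 12305), and Tnf, with 1225 CPM (1173 to 1278), and Cxcl10 was at 1691 CPM (1629.9 to 1754). Subcluster 5 (87 cells, 13.3%), led by Hkdc1, Pde4c, Pecam1, Fbxl18 and Dusp6, had Ccl4 at 1774 CPM (1679 to 1872) and Il1b at 171 CPM (142 to 203). It had the highest Cx3cr1, the fractalkine receptor, at 395 CPM (351 to 443), and Maf, at 1009.8 CPM (939 to 1085), and also high Jun, at 1476 CPM (1389.7 to 1566).

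Il1b was concentrated in 2 subclusters that differed in lipid-associated genes. Subcluster 3 (117 cells, 17.8%), led by Areg, F10, Fabp5, Mmp12 and Il7r, had Il1b at 2839 CPM (2758 to 2923) and Lgals3 at 5992 CPM (5874 to 6112). Fabp5 was at 1768 CPM against 118 CPM in the other members. Gfp was highest there, at 1128 CPM (1076 to 1180.3), compared with 383 CPM (355 to 414) in subcluster 1. Subcluster 4 (95 cells, 14.5%), led by Apoc1, Stat4, Bmp2, Pmepa1 and Gpr84, had Il1b at 2538 CPM (2439 to 2639.8) and Lgals3 at 662 CPM (612 to 715), with the highest Cd14, at 3339 CPM (3226 to 3456). All members had been chosen for class II. H2-Eb1 was at 4748 CPM (4642 to 4855) in subcluster 3 and 5989.8 CPM (5837 to 6145) in subcluster 4, compared with 6257 CPM (6139 to 6376) in subcluster 1. Its median per cell after thinning was 21 UMIs in subcluster 3 and 29 in subcluster 4, with 32 in subcluster 1 and 13 in subcluster 6.

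The remaining subclusters were led mostly by genes of other tissues. Subcluster 2 (123 cells, 18.8%) was led by Car3, Retnla, Ckm, Myl1 and Acta1, most of them muscle fibre genes. Acta1 was at 420.3 CPM against 39.9 CPM in the other members, and Fos at 2633 CPM (2539 to 2729). Retnla, the macrophage product, was at 2104 CPM against 129 CPM, with a UMI in 17.1% of the cells of subcluster 2. Subcluster 6 (54 cells, 8.23%) was led by Tmeff2, Myoc, Gdf10, Scara5 and Fst, with Dcn at 4086 CPM (3947 to 4227), against 17.5 CPM in subcluster 1. It had the highest depth, a median of 14148 UMIs against 9014 in subcluster 1, and the cycle gene Top2a at 261 CPM (227 to 299). It held 29 of the 31 members rich in fibroblast or erythroid UMIs and 39 of the 93 members with high Scrublet scores. Its class II was the lowest, with H2-Eb1 at 3508 CPM (3380.3 to 3639.9). A finer clustering (resolution 1 in place of 0.5) divided the members into 13 subclusters.

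**Figure D5:**
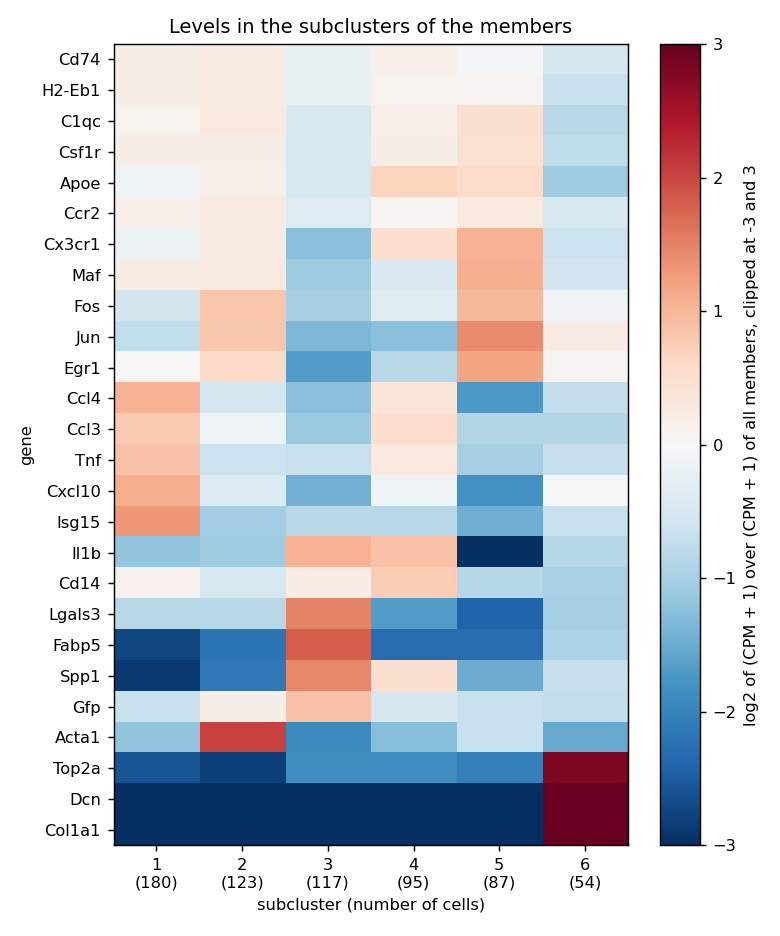
Level of 26 genes in the 6 subclusters (x axis, number of cells in brackets), as the log2 of CPM plus 1 over that of all 656 members plus 1, in colour from -3 to 3. Ccl4, Tnf, Cxcl10 and Isg15 are highest in subcluster 1, Lgals3, Fabp5, Spp1 and Gfp in subcluster 3, Cx3cr1, Maf and Jun in subcluster 5, Acta1 in subcluster 2, and Dcn, Col1a1 and Top2a in subcluster 6.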

How the data were processed

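GFP+ propidium iodide negative cells of 1 library were profiled with droplet 3′ RNA sequencing. The values deposited by the authors are UMI counts per gene and barcode (Cell Ranger; 7.1.0 and mm10 with Seurat 4.30 in the submitters' processing notes, 8.0.1 in the file header), as whole numbers and not normalised, and 36400 barcodes held 170648616 UMIs (median 2130). The study's later steps for ambient RNA and doublets were not repeated. The GFP- library had barcode and feature names only in use here. Counts were summed over the cells of each gate and divided by the gate's total (CPM). Intervals are exact Poisson for levels, exact binomial for shares and exact conditional for ratios, at 95%, and cover counting error only. A gene at 0 in 1 group was set to 3 counts. Cells were thinned with a fixed seed. Subclusters came from 1000 variable genes without the rule genes, 15 components, 15 neighbours and Leiden at resolution 0.5 (scanpy 1.11.5, igraph 0.11.9). Scripts used Python 3.11.15, scipy 1.17.1 and matplotlib 3.10.9, and the ratio step was tested on simulated data. Named genes were those of the rule, of the lists, the 10 highest and 10 lowest ratios per comparison with at least 50 CPM, the 10 most variable and 5 leading genes a subcluster. Genes ranked without fibroblast- and erythroid-rich barcodes were chosen after their values were seen. Members, lists and gates were chosen with earlier results of these data known.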

Additional observations from a re-analysis of the deposited data

How the results depend on the processing

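No paired analysis was possible because 1 library holds all compared cells. All 42 gene ratios printed above that passed 2-fold stayed past 2-fold in the same direction under each alternative run for them: equal weight per cell, thinning to 5000 UMIs, gates after thinning, class II minimum of 10 or 40 UMIs, C1q minimum of 12, at least 10000 UMIs, mitochondrial share under 5%, removal of high Scrublet scores, of barcodes over 40000 UMIs or of those rich in fibroblast or erythroid genes, and, for Gpnmb ratios, the wider group. The number of members ran from 544 to 800 under these, except 281 with at least 10000 UMIs. Genes over 2-fold higher and lower than in Lyve1 Folr2 macrophages numbered 309 and 492, with a 50 CPM minimum 151 and 162, and with none 1807 and 2126. Against dendritic cells they numbered 1356 and 694, with 50 CPM 569 and 314, and with none 3153 and 2183. Against Gpnmb macrophages they numbered 1159 and 915, with 50 CPM 379 and 337, the lower ones 2043 with none, and after thinning 911 and 2081. The change with the CPM minimum follows from the number of genes read, and the cause of the change after thinning was not tested. Other counts stayed within 1.5 times. Subclusters numbered 6 and, at resolution 1, 13. Differences in genes near 10 CPM were not detectable against 20 Gpnmb cells at this depth.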

Other observations

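Several gene lists stood apart from one group of cells and not from another. Of 13 interferon response genes that reached 10 CPM, 0 were over 2-fold higher or lower in members than in Lyve1 Folr2 macrophages, with a median log2 ratio of 0.07, beside subcluster 1, which was led by such genes. Against dendritic cells 7 of 12 were higher and 0 lower. Of 12 genes of lysosomal proteases, which break down engulfed protein, 0 differed by 2-fold from Lyve1 Folr2 macrophages and 9 were higher than in dendritic cells. Cell cycle genes summed to 195 CPM in members, 196 CPM in Lyve1 Folr2 macrophages, 63.5 CPM in Gpnmb macrophages, 606 CPM in dendritic cells and 63.8 CPM in fibroblasts. Against dendritic cells 7 of 8 were over 2-fold lower in members, and against Lyve1 Folr2 macrophages 0 of 6 differed by 2-fold. Within the members, 10 cells held 80.0% of Top2a UMIs, a gene of DNA replication.

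Of 8 genes often used to mark microglia, 7 reached 10 CPM against Lyve1 Folr2 macrophages, of which 1 was over 2-fold higher in members and 3 lower. Cx3cr1, the fractalkine receptor, was at 192 CPM (182 to 203) in members and 96.7 CPM (93.8 to 99.8) in Lyve1 Folr2 macrophages. Trem2 was at 403 CPM (388 to 418) and 397 CPM (391 to 403). Of 19 myeloid transcription factor genes, 4 were over 2-fold higher in members than in Lyve1 Folr2 macrophages and 1 lower, Maf, at 478 CPM (462 to 495) and 1308 CPM (1297 to 1319).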
